A study of Homo sapiens with 6 samples.

Results

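Cholesterol synthesis and its control by the sterol regulatory element-binding proteins (SREBPs) were followed through 30 genes of the 60649 in the count table. The members were chosen by symbol: enzymes of the route, SREBPs and the proteins that hold or release them, sterol transport and ester genes, and the liver X receptor (LXR) arm. The list is not the whole pathway. Each symbol matched a single row, and all 30 passed the filter on low counts, as 16039 genes did.

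RNA was sequenced from 786-O cells, a line derived from a human clear cell renal carcinoma and lacking working VHL, grown in medium with fetal bovine serum and given no further treatment. The shRNA1 and shRNA2 groups each carried a different short hairpin RNA against the long non-coding RNA LINC02068, and the shControl group, whose genotype is labelled WT, was the control. Each of the 3 groups had 2 libraries, and the labels do not tie the replicates to separate cultures, so the spread behind each p-value may be technical only. All groups share 1 cell line, which limits them as a model.

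Cells make cholesterol from acetyl-CoA by way of mevalonate, farnesyl diphosphate, squalene and lanosterol. SREBPs are made as membrane precursors in the endoplasmic reticulum. When sterols are low, SCAP carries them to the Golgi, where they are cut and freed to switch on genes of sterol and fatty acid synthesis. When sterols are high, INSIG proteins hold SCAP back. LXRs sense oxysterols and drive export and reduced uptake of cholesterol. Clear cell renal carcinoma is named for cells that look empty because they store cholesterol esters and other lipids.

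Total counts ran from 15376448 to 37311846 per library, and 1 CPM (a count scaled to library size with TMM factors, which set libraries to a common scale) stood for 14.9 to 36.0 counts. LINC02068 had 20 and 32 counts in the controls, 9 and 2 with shRNA1, and 17 and 10 with shRNA2, and passed the test only for the mean of both hairpins (−1.46 ± 0.59, edgeR adjusted p = 0.0447). Over all tested genes 28.6% were called higher and 28.9% lower for that mean, so a call by itself is common here. Of 6 markers of the renal carcinoma line all were detected, at 6789 to 6790 CPM summed in the controls and 8570 to 8702 with the hairpins. Leukocyte, endothelial and hepatocyte markers summed to at most 1.15 CPM in any library, and fibroblast markers to 8.49 to 8.53 CPM in the controls and 4.91 to 5.91 with the hairpins. PTPRC, CDH5, DCN and ALB, 1 marker from each of these 4 lists, had no counts in any library, but other markers did. LUM made up most of the fibroblast sum, at 8.53 and 8.42 CPM in the controls, and was called lower (−0.72 ± 0.17, edgeR adjusted p = 0.00161). CD14, PECAM1, KDR and PDGFRA stayed below 1 CPM in every library. VIM alone gave 5142 and 5151 CPM of the renal carcinoma sum in the controls. The part of the marker shifts in the results was not tested.

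The RefSeq promoters (GRCh38.p14, 250 bases before a start to 50 after it) are shown first, and binding of SREBPs to them was not measured. The windows of 27 members were matched, in 36 windows. They were searched on both strands for the sterol element TCACNCCAC, its shorter core CACNCCAC (contained in the former), the CCAAT box of NF-Y, a partner of SREBPs, and the E-box CACGTG, which SREBPs also bind. Below are the 250 bases before the outermost start of 5 genes, with every match to the core, CCAAT and E-box on either strand in capitals. INSIG1 and INSIG2 are printed because they moved in opposite directions, SREBF2 because it alone held the full sterol element, and HMGCS1 and NSDHL as enzymes with large increases. LSS, which rose more than NSDHL, is not printed, and its window held 1 CCAAT box and 1 E-box.
INSIG1, chr7:155297628-155297877, plus strand: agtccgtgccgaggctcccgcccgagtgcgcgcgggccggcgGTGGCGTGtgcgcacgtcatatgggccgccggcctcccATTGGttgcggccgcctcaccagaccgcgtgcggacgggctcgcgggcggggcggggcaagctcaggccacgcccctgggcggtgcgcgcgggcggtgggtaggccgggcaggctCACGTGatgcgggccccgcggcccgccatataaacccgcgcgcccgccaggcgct
INSIG2, chr2:118088221-118088470, plus strand: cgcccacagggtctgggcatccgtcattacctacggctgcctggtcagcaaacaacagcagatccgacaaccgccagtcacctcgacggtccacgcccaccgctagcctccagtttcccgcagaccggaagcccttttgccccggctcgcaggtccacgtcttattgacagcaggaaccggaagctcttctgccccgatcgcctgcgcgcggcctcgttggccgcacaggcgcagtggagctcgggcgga
SREBF2, chr22:41832855-41833104, plus strand: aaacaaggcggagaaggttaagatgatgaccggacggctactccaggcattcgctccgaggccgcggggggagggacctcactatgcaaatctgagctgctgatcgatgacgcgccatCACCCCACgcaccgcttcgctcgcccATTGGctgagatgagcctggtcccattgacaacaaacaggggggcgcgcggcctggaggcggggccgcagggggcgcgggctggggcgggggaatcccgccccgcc
HMGCS1, chr5:43313413-43313662, minus strand: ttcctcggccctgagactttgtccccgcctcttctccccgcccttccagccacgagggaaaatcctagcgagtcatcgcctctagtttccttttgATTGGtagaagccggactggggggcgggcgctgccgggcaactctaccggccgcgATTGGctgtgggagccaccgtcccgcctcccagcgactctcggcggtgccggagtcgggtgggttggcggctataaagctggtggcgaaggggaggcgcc
NSDHL, chrX:152830813-152831062, plus strand: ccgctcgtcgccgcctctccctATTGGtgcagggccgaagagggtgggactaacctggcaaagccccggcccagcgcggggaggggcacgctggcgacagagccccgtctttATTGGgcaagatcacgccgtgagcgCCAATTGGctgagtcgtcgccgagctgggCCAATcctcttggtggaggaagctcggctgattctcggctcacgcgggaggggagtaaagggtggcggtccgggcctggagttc

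In these stretches INSIG1 held the core, a CCAAT box and an E-box, and INSIG2 none of them. SREBF2 held the full element (the capitals and the base before them) upstream of a CCAAT box, HMGCS1 a pair of CCAAT boxes and NSDHL 5 CCAAT matches. Across the 27 members, 1 had the full element, 4 the core (IDI1, INSIG1, SC5D and SREBF2), 20 a CCAAT box and 4 an E-box, counting a gene if any of its windows matched. Of all 35116 promoter windows in the table, 1.13%, 5.87%, 34.6% and 7.26% held these motifs. Of the 11026 tested genes with a window, 1.40%, 7.53%, 43.1% and 12.5% did. The CCAAT box was present in 14 of the 19 matched members called higher and in 6 of the 8 others, and the core in 4 and 0 of them. These are matches of letters, not measured binding, and a missing match says only that the letters are not in the window.

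Most enzymes of the pathway rose with both hairpins. For the mean of both hairpins against shControl, 22 of the 30 members were called higher, 2 lower and 6 not called, or 73.3% higher and 6.67% lower, against the 28.6% and 28.9% of all tested genes. The median log2 change was 0.55, beside −0.03 for all tested genes, whose quartiles were −0.49 and 0.40. With shRNA1 alone 22 were higher and 2 lower (26.8% and 25.6% of all genes), and with shRNA2 alone again 22 and 2 (26.7% and 26.1% of all genes). Both comparisons use the same control libraries. In 22 members all 4 knockdown libraries lay above both controls (32.7% of tested genes) and in 3 all lay below (34.2%). A call is an adjusted p under 0.05 in edgeR's quasi-likelihood test, errors are standard errors of log2 changes, and in such bulk RNA fewer cells making a transcript and less transcript per cell cannot be told apart. With library totals in place of TMM factors the median of all genes was −0.18 and that of the members 0.40, with 21 members higher and 5 lower. Of all tested genes 3398 were then higher and 6028 lower.

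**Figure D1:**
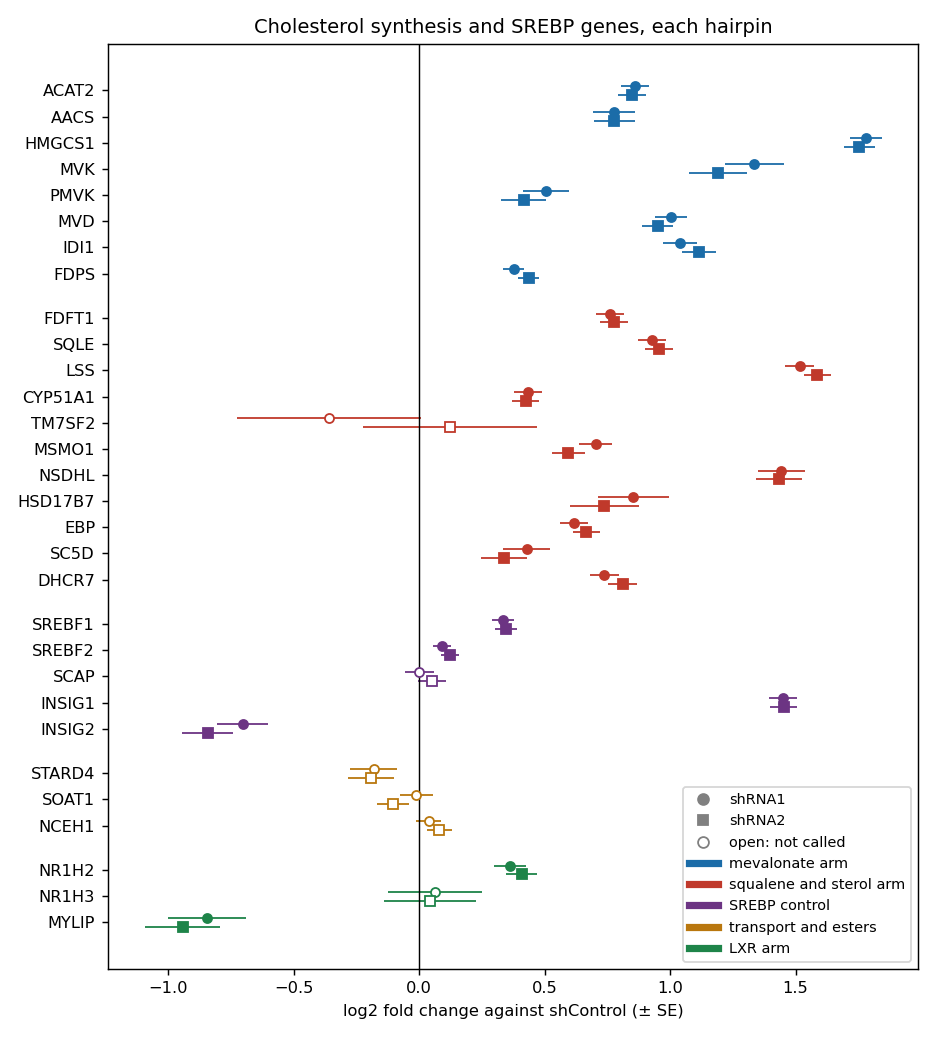
Log2 fold change against shControl (x axis, ± SE) of each of the 30 genes (y axis, grouped by role), for shRNA1 (circles) and shRNA2 (squares), with open symbols where the gene was not called. Nearly all enzymes lie right of 0, up to HMGCS1, while INSIG2 and MYLIP lie left of it.

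The mevalonate arm, from acetoacetyl-CoA to farnesyl diphosphate, rose in all 8 of its genes, with a median of 0.92 and a range of 0.41 to 1.77. All 8 were called higher, against 28.6% of all tested genes. Its summed level was 407 to 412 CPM in the control libraries and 726 to 745 CPM in the knockdown libraries. HMGCS1, the cytosolic HMG-CoA synthase (here and for other genes in GENCODE 29 positions on GRCh38: chromosome 5, 43289395 to 43313512, minus strand), stood at 34.6 and 32.2 CPM under shControl, 118 and 111 under shRNA1 and 115 and 110.2 under shRNA2. The 4 knockdown libraries were all more than 100 CPM and the groups did not overlap, with an increase of 3.43-fold and 3.36-fold (1.77 ± 0.06, adjusted p = 9.8e-13). This was the largest change among the 30 members. MVK, mevalonate kinase (chromosome 12, 109573255 to 109598117, plus strand), stood at 10.8 and 10.6 CPM under shControl, 24.9 and 29.1 under shRNA1 and 23.8 and 25.1 under shRNA2. Its groups were far apart as well (1.26 ± 0.10, adjusted p = 5.1e-08). IDI1, the isomerase that sets the balance of the 5-carbon building blocks (chromosome 10, 1039152 to 1049170, minus strand), stood at 36.3 and 34.0 CPM under shControl, 72.4 and 71.9 under shRNA1 and 74.1 and 78.1 under shRNA2. Both hairpins thus gave about 2-fold the control level (1.08 ± 0.06, adjusted p = 5.6e-10).

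The other mevalonate genes rose by less. MVD, which decarboxylates mevalonate diphosphate, went from 62.4 CPM (shControl mean) to 125 (shRNA1) and 120.3 (shRNA2) (0.98 ± 0.06, adjusted p = 7.5e-10), and PMVK, the kinase before it, from 22.8 CPM (shControl mean) to 32.4 (shRNA1) and 30.5 (shRNA2) (0.46 ± 0.08, adjusted p = 1.3e-04). FDPS, farnesyl diphosphate synthase and the most abundant of the arm per exon length, went from 148 CPM (shControl mean) to 192 (shRNA1) and 201 (shRNA2) (0.41 ± 0.04, adjusted p = 1.1e-07). AACS, which makes acetoacetyl-CoA from acetoacetate, went from 29.5 CPM (shControl mean) to 50.6 (shRNA1) and 50.6 (shRNA2) (0.78 ± 0.07, adjusted p = 2.2e-07). ACAT2, the cytosolic thiolase that joins acetyl-CoA units, went from 66.9 CPM (shControl mean) to 121 (shRNA1) and 120.4 (shRNA2) (0.85 ± 0.05, adjusted p = 5.7e-10). ACAT2 exons share 397 bases with the opposite-strand gene TCP1, a chaperonin subunit that went from 217 CPM to 443 and 427 (1.00 ± 0.03, adjusted p = 5.2e-13). ACAT2 also shares 1141 exon bases with an opposite-strand SOD2 entry whose ID is not in the count table, so that entry has no value here. The SOD2 row of the count table, under a different ID, fell by 0.14 ± 0.03 (adjusted p = 0.00158, edgeR). SOD2-OT1, on the opposite strand with 1458 shared bases, was scarce and not called (−0.54 ± 0.67, edgeR adjusted p = 0.528). The strand setting of the counts is not given in the sources used here, so ACAT2 is uncertain, and the part of such reads in it was not tested. MVK likewise shares 306 exon bases with MMAB, which went from 27.9 CPM to 39.9 and 38.4 (0.48 ± 0.07).

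**Figure D2:**
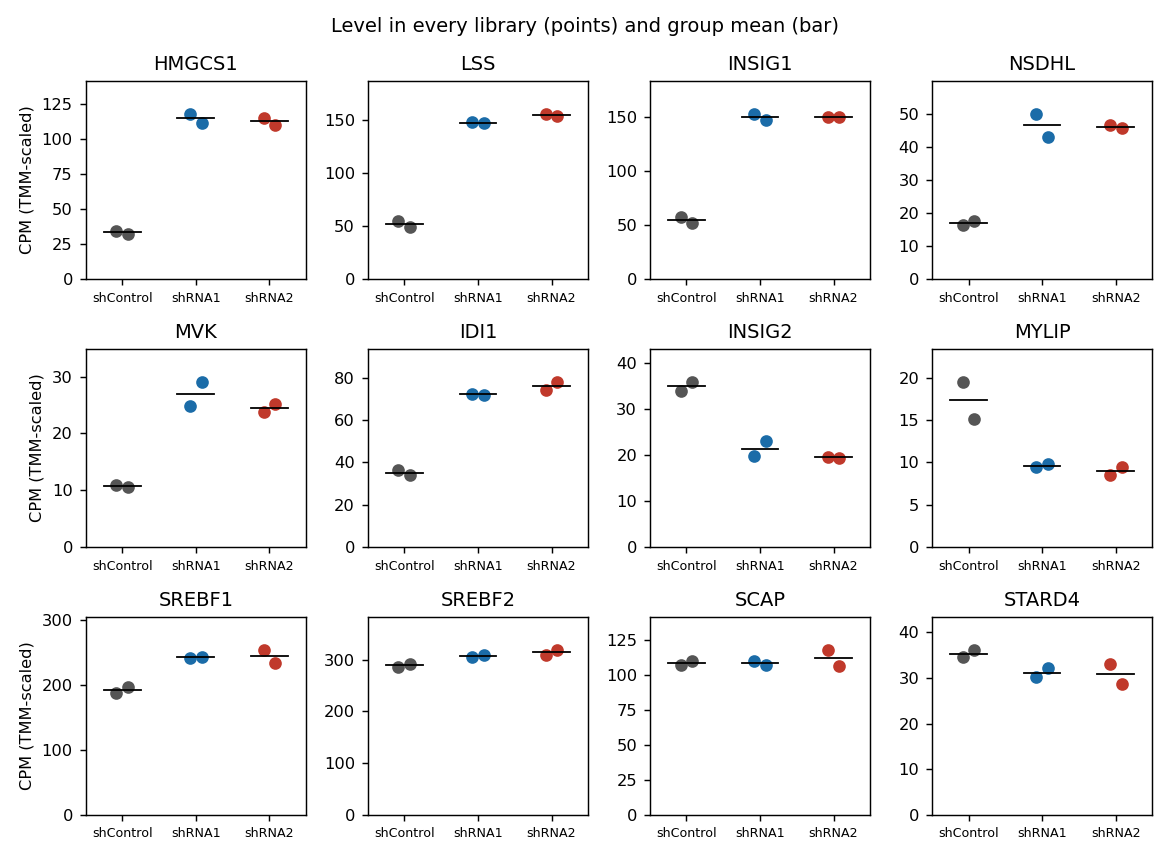
Level in CPM (y axis, from 0) of 12 genes in each library (points) by group (x axis), with the group mean as a bar. HMGCS1, LSS, INSIG1, NSDHL, MVK and IDI1 are higher in all 4 knockdown libraries, INSIG2 and MYLIP lower, and SCAP overlaps between groups.

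In the squalene and sterol arm 10 of 11 genes rose and 1 was not called, with a median of 0.77. That is 90.9% called higher, against 28.6% of all tested genes. The summed level went from 606 to 641 CPM in the controls to 1068 to 1111 CPM. LSS, lanosterol synthase, which closes the sterol rings (chromosome 21, 46188141 to 46228824, minus strand), stood at 54.3 and 48.7 CPM under shControl, 147 and 146 under shRNA1 and 155 and 154 under shRNA2. It reached nearly 3-fold the control level with each hairpin (1.55 ± 0.05, adjusted p = 1.2e-12). NSDHL, a dehydrogenase of the C4 demethylation steps (chromosome X, 152830967 to 152869729, plus strand), stood at 16.5 and 17.6 CPM under shControl, 49.99 and 43.2 under shRNA1 and 46.6 and 45.7 under shRNA2. All knockdown libraries lay above 40 CPM and both controls below 18 (1.44 ± 0.08, adjusted p = 8.2e-10). SC5D, the sterol desaturase of the late steps, had the smallest called change of the arm, at 23.6 and 26.0 CPM under shControl, 32.5 and 34.3 under shRNA1 and 32.5 and 30.1 under shRNA2. Its groups did not overlap (0.38 ± 0.08, adjusted p = 8.9e-04), but it lost its call in a test against a fold of 1.2 (adjusted p = 0.0608, edgeR glmTreat).

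The 7 steps between these changed by intermediate amounts, from 0.43 to 0.94. SQLE, squalene epoxidase and a rate-limiting step, went from 60.5 CPM (shControl mean) to 115 (shRNA1) and 118 (shRNA2) (0.94 ± 0.05, adjusted p = 2.6e-10). FDFT1, squalene synthase, the first enzyme committed to sterols, went from 70.9 CPM (shControl mean) to 119.9 (shRNA1) and 121 (shRNA2) (0.77 ± 0.05, adjusted p = 2.3e-09). HSD17B7, a ketoreductase of the demethylation steps, went from 8.57 CPM (shControl mean) to 15.5 (shRNA1) and 14.3 (shRNA2) (0.80 ± 0.12, adjusted p = 4.8e-05), with pseudogenes at 8.23% of its control level. DHCR7, the reductase of the last step, had the highest level per exon length of all members and went from 182 CPM (shControl mean) to 304 (shRNA1) and 319.5 (shRNA2) (0.77 ± 0.05, adjusted p = 1.3e-07). CYP51A1, lanosterol demethylase, rose by 0.43 ± 0.05, MSMO1, the C4 methyl oxidase, by 0.65 ± 0.06, and EBP, the sterol isomerase, by 0.64 ± 0.05. All 7 had adjusted p-values of at most 4.8e-05 in edgeR. TM7SF2, a sterol C14 reductase, was the exception and was scarce, at 2.57 and 1.61 CPM under shControl, 1.88 and 1.36 under shRNA1 and 2.33 and 2.15 under shRNA2. Its groups overlapped, and the change was within the error (−0.12 ± 0.31, adjusted p = 0.763).

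The levels per kilobase of exon (RPKM, over all annotated exons) changed order among the enzymes. In the controls HMGCS1 was the 22nd and LSS the 21st of 30 members, at 7.11 and 7.12 RPKM, and did not differ beyond their spread. With shRNA1 they were 13th and 18th, at 24.4 and 20.3 RPKM, and with shRNA2 again 13th and 18th, at 23.9 and 21.3 RPKM. DHCR7 (43.7 RPKM in the controls) and FDPS (39.9) stayed first and second in every group. INSIG1 moved from 13th in the controls to 4th with shRNA1 and 5th with shRNA2. TM7SF2 was last throughout, at 0.613 RPKM in the controls.

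**Figure D3:**
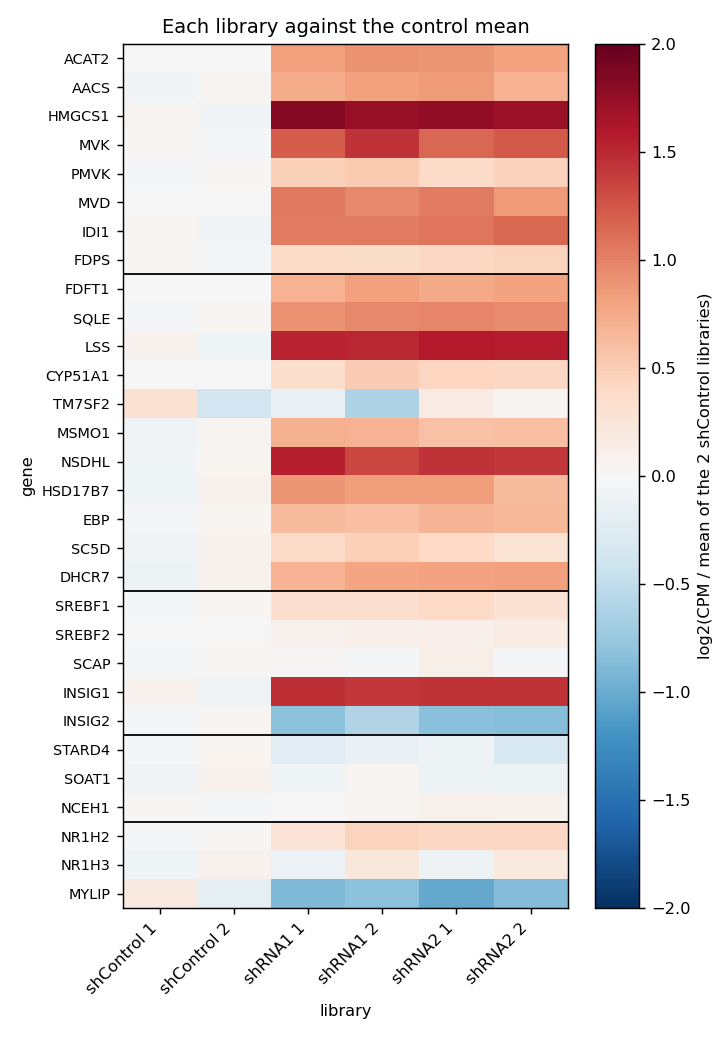
Log2 ratio of each library's CPM to the mean of both shControl libraries (colour, −2 to 2) for the 30 genes (rows, lines between roles) in 6 libraries (columns). The 4 knockdown columns look alike, red over the enzymes and INSIG1 and blue at INSIG2 and MYLIP.

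SREBP control genes did not move as a block. INSIG1, the retention protein whose gene is itself an SREBP target (chromosome 7, 155297776 to 155310235, plus strand), stood at 57.5 and 52.1 CPM under shControl, 152 and 146 under shRNA1 and 149.6 and 149.6 under shRNA2. It rose 2.73-fold with each hairpin (1.45 ± 0.05, adjusted p = 2.1e-12). INSIG2, its paralog with the same role (chromosome 2, 118088452 to 118110997, plus strand), stood at 34.0 and 35.9 CPM under shControl, 19.8 and 23.0 under shRNA1 and 19.6 and 19.3 under shRNA2. Both controls lay above every knockdown library, and it fell 1.63-fold with shRNA1 and 1.79-fold with shRNA2 (−0.77 ± 0.09, adjusted p = 1.4e-06). The ratio of INSIG1 to INSIG2 per exon length within a library, which does not depend on the scaling, was 1.83 and 1.57 in the controls, 8.31 and 6.89 under shRNA1, and 8.24 and 8.37 under shRNA2. The log2 difference of this ratio was 2.23 (two-sided exact permutation p = 0.0667, the smallest that 4 against 2 libraries allow). Every knockdown library already lay above the controls in INSIG1 and below them in INSIG2. Separation of the ratio follows from that, so this p adds no further evidence.

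The genes of the SREBP precursors had small changes. SREBF1, which encodes SREBP-1a and SREBP-1c, drivers of fatty acid genes in particular (chromosome 17, 17810399 to 17837002, minus strand), stood at 187 and 197 CPM under shControl, 242 and 243 under shRNA1 and 254 and 234 under shRNA2. It rose 1.26-fold and 1.27-fold, and the groups did not overlap (0.34 ± 0.04, adjusted p = 2.3e-06). SREBF2, which encodes SREBP-2, the main driver of cholesterol genes (chromosome 22, 41833079 to 41907308, plus strand), stood at 287 and 291 CPM under shControl, 306 and 309 under shRNA1 and 309.5 and 319 under shRNA2. The libraries did not overlap but lay close, and the call was small (0.11 ± 0.03, adjusted p = 0.00798). It was lost without shControl replicate 1 (0.09, adjusted p = 0.0968) without a low-count filter (0.09, 0.124) and in the test against a fold of 1.2 (adjusted p = 1), and the sign turned under total counts (−0.05, 0.161). SCAP, the SREBP escort, stood at 107 and 110.0 CPM under shControl, 109.9 and 107 under shRNA1 and 118 and 106 under shRNA2. Its groups overlapped and it was not called (0.03 ± 0.05, adjusted p = 0.67), but was called lower under total counts (−0.13, adjusted p = 0.0331, edgeR). The ratio of SREBF1 to SREBF2 per exon length was 0.616 and 0.638 in the controls and 0.690 to 0.774 with the hairpins (two-sided exact permutation p = 0.0667, again the smallest possible). SREBF1 shares 556 exon bases with the opposite-strand gene RAI1, which went from 181 CPM to 145 and 147 (−0.31 ± 0.04).

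**Figure D4:**
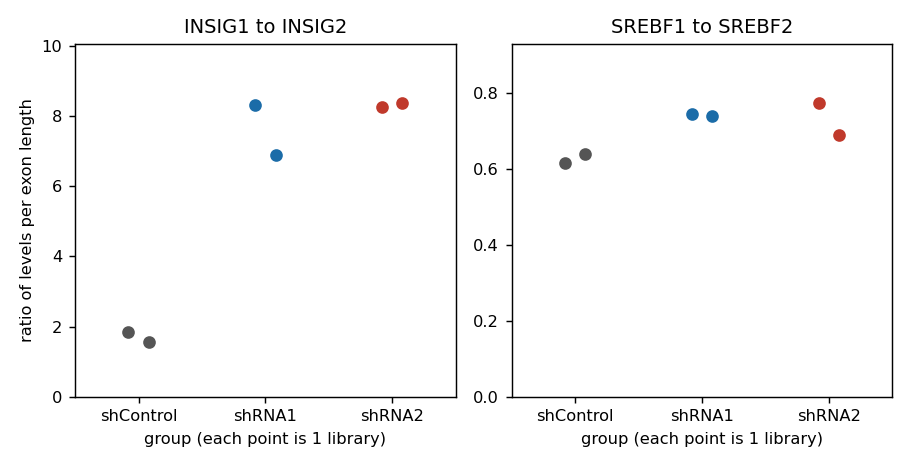
Ratio of INSIG1 to INSIG2 (left) and of SREBF1 to SREBF2 (right), in level per exon length (y axis, from 0), in each library (points) by group (x axis). The INSIG ratio is at most 1.83 in the controls and at least 6.89 with the hairpins, and the SREBF ratio moves far less.

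None of the 3 sterol transport and ester members was called, while 28.6% of all tested genes were called higher and 28.9% lower. STARD4, a soluble sterol carrier whose gene is a known SREBP target, stood at 34.5 and 36.2 CPM under shControl, 30.2 and 32.2 under shRNA1 and 33.0 and 28.8 under shRNA2. All 4 knockdown libraries lay below the controls by a small margin (−0.19 ± 0.08, adjusted p = 0.0572). The gene was called lower with no filter on low counts (−0.21, adjusted p = 0.0487), with a stricter filter (−0.21, 0.0295), without shRNA2 replicate 1 (−0.25, 0.0248) and under total counts (−0.34, 0.00183), while removal of length and GC trends gave 0.00 (0.968). SOAT1, which makes the cholesterol esters stored in droplets, stood at 79.2 and 86.6 CPM under shControl, 78.5 and 86.0 under shRNA1 and 77.4 and 77.0 under shRNA2. The groups overlapped (−0.06 ± 0.06, adjusted p = 0.398), and it was called lower only under total counts (−0.21, adjusted p = 0.00350, edgeR). NCEH1, which hydrolyses such esters, stood at 99.8 and 97.3 CPM under shControl, 99.4 and 103 under shRNA1 and 105 and 103 under shRNA2. It too overlapped between groups (0.06 ± 0.04, adjusted p = 0.277), and was called higher after removal of the length and GC trends (0.18, adjusted p = 0.00252, edgeR). Together the 3 genes summed to 214 to 220 CPM in the controls and 208 to 221 CPM with the hairpins.

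The LXR arm had 1 member called higher, 1 lower and 1 not called. These shares (33.3% higher and 33.3% lower) are near the 28.6% and 28.9% of all tested genes. NR1H2, LXR beta, the form found in most tissues, stood at 68.1 and 70.2 CPM under shControl, 83.9 and 93.8 under shRNA1 and 91.8 and 91.8 under shRNA2. All 4 knockdown libraries lay above both controls (0.39 ± 0.06, adjusted p = 2.2e-05). NR1H3, LXR alpha, stood at 7.51 and 8.42 CPM under shControl, 7.32 and 9.31 under shRNA1 and 7.42 and 9.09 under shRNA2. Per exon length NR1H2 exceeded it 10.1-fold to 10.9-fold in the controls, and NR1H3 overlapped between groups (0.05 ± 0.16, adjusted p = 0.799). MYLIP, an LXR-induced ubiquitin ligase that lowers lipoprotein uptake (chromosome 6, 16129125 to 16148248, plus strand), stood at 19.5 and 15.1 CPM under shControl, 9.41 and 9.78 under shRNA1 and 8.53 and 9.47 under shRNA2. The controls differed from each other by more than the knockdown libraries did, yet both lay above all of them, and MYLIP fell 1.81-fold and 1.92-fold (−0.89 ± 0.13, adjusted p = 2.2e-05). This was the lowest change among the 30 members, with INSIG2 next.

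The hairpins gave like values across the members. Between shRNA1 and shRNA2 0 of the 30 were called by edgeR or by DESeq2, and 0 had an unadjusted p under 0.05 in edgeR, in a comparison that called 0.0312% of all tested genes. The differences ran from −0.48 to 0.14 on the log2 scale. The widest was that of TM7SF2 (−0.48 ± 0.36), which had 26 to 84 counts per library, and among the rest MVK (0.14 ± 0.11), INSIG2 (0.14 ± 0.10) and HSD17B7 (0.12 ± 0.14) were farthest apart. A p that misses the threshold does not show that the hairpins act alike.

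Other genes tied to SREBPs were read from lists beside the members. In the fatty acid arm, the other branch of SREBP targets, 10 of 11 genes were higher, none lower and 1 not called, with a median of 0.43. That is 90.9% higher, against 28.6% of all tested genes. With shRNA1 alone 9 of the 11 were called higher (26.8% of all tested genes). FASN, fatty acid synthase, went from 225 CPM (shControl mean) to 773 (shRNA1) and 794 (shRNA2) (1.80 ± 0.04, adjusted p = 6.5e-15), a change close to that of HMGCS1. ELOVL6, an elongase, went from 73.3 CPM (shControl mean) to 174 (shRNA1) and 180.1 (shRNA2) (1.28 ± 0.05, adjusted p = 9.3e-12), and ACACA, acetyl-CoA carboxylase, from 53.7 CPM (shControl mean) to 101 (shRNA1) and 102 (shRNA2) (0.92 ± 0.05, adjusted p = 7.5e-10). Genes of SREBP cleavage and of sterol-regulated protein degradation were lower in 7 of 11 cases, higher in 3 and not called in 1 (63.6% lower and 27.3% higher, against 28.9% and 28.6% of all tested genes). Their median of −0.26 lay between the quartiles of all genes. MBTPS2, the site-2 protease that frees SREBPs, went from 54.3 CPM (shControl mean) to 40.6 (shRNA1) and 36.2 (shRNA2) (−0.50 ± 0.07, adjusted p = 7.7e-06). VCP, the ATPase that pulls proteins out of the membrane and has many other tasks, rose from 262 CPM (shControl mean) to 682 (shRNA1) and 686 (shRNA2) (1.38 ± 0.03, adjusted p = 9.9e-15).

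**Figure D5:**
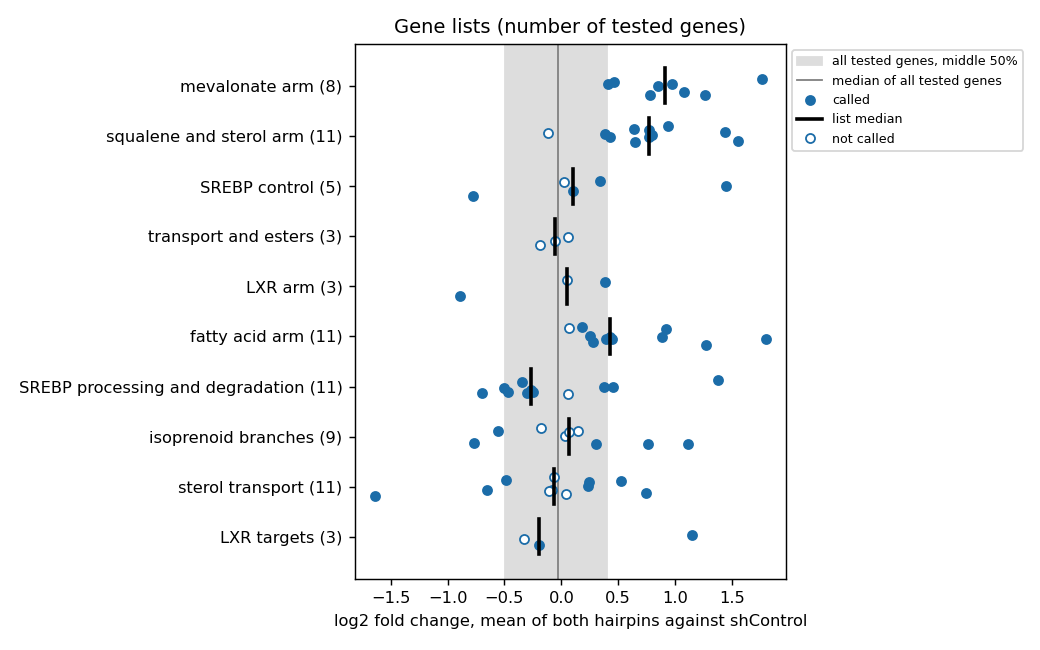
Log2 change for the mean of both hairpins (x axis) of the tested genes of each list with at least 3 of them (rows, number in brackets), filled where called, with the list median as a black bar and the range between the quartiles of all tested genes in grey. The mevalonate and sterol genes lie mostly right of the grey band, while the fatty acid median (0.43) is at its edge and the medians of the other rows shown lie within it.

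Branches that leave the pathway at farnesyl diphosphate had 3 genes higher, 2 lower and 4 not called of 9, with a median of 0.06. These shares (33.3% and 22.2%) are near the 28.6% and 28.9% of all tested genes. PDSS1, which builds the ubiquinone tail, rose from 2.12 CPM (shControl mean) to 4.89 (shRNA1) and 4.24 (shRNA2) (1.12 ± 0.23, adjusted p = 7.7e-04). DHDDS, which makes dolichol chains, rose by 0.76 ± 0.09, and FNTA, the shared subunit of protein prenyltransferases, fell from 30.6 CPM (shControl mean) to 17.6 (shRNA1) and 18.4 (shRNA2) (−0.77 ± 0.10, adjusted p = 4.6e-06). Of 11 sterol transport genes 4 were higher, 3 lower and 4 not called, with a median of −0.07, and these shares (36.4% and 27.3%) are again near those of all tested genes. The Aster proteins, which move cholesterol from the plasma membrane to the endoplasmic reticulum, differed among themselves: GRAMD1A fell from 141 CPM (shControl mean) to 86.8 (shRNA1) and 92.0 (shRNA2) (−0.65 ± 0.07, adjusted p = 7.5e-06), GRAMD1C, which is scarce, fell by 1.64 ± 0.41 and GRAMD1B, scarce as well, rose by 0.75 ± 0.27 (adjusted p = 0.0295). With shRNA2 alone GRAMD1B was not called (0.65 ± 0.31, edgeR adjusted p = 0.0887). Among LXR targets LPCAT3, a phospholipid acyltransferase, rose from 19.8 CPM (shControl mean) to 42.3 (shRNA1) and 45.9 (shRNA2) (1.15 ± 0.10, adjusted p = 4.9e-07), ABCA1, the cholesterol exporter, fell by 0.19 ± 0.03, SMPDL3A was not called and ABCG1 was too scarce to test. Of 4 enzymes that act in oxysterol metabolism only CYP46A1 passed the filter, and it was not called (0.55 ± 0.74, adjusted p = 0.55).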

How the data were processed

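The deposited table holds the authors' unnormalized counts of 6 libraries. Per the labels' protocols, total RNA was extracted with TRIzol and sequenced as paired ends. Per the submitters' processing notes the tools were FastQC 0.11.9, Trim Galore 0.6.7, HISAT2 2.2.1 and StringTie 2.2.1, with build hg38. Not given in the sources used here: counting tool, annotation and strand setting.

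Counts were tested with edgeR 4.0.16 (limma 3.58.1, R 4.3.3): filterByExpr by group, TMM, a quasi-likelihood fit of all 6 libraries without a block, and Benjamini-Hochberg adjustment over 16039 genes. A standard error is the log2 change over the root of its F. Positions and exon lengths come from GENCODE 29 (GRCh38), which held 96.3% of the gene IDs. Alternatives were DESeq2 1.42.0, RLE factors, total counts, no filter, a stricter one (10 counts in 2 libraries, mean 1 CPM), a replicate block, a test against a fold of 1.2, removal of length and GC trends (mgcv 1.9.3, 99.1% of genes) and each library left out. The code was tested on simulated data.

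The members and lists were chosen with earlier results of these data known. All members are named. Every library's value is given for the 6 highest and 6 lowest called changes, SREBP control genes and uncalled members, and up to 3 called genes are named per further list. A gene that this rule would name is not reported here.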

Additional observations from a re-analysis of the deposited data

How the results depend on the processing

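Over 14 alternatives, 22 of the 30 members kept their direction and their side of the threshold in each. Of the 420 member values 396 did, 4 lost a call and 6 gained one without a change of sign, and 14 changed sign. These 14 were all in genes that were uncalled or, for SREBF2, barely called. Among them, under total counts, SCAP also gained a call and SREBF2 also lost its call. Under total counts without TMM factors 5 members were called lower for the mean of both hairpins, 5 with shRNA1 and 4 with shRNA2, in place of 2 each, and of all called genes 36.1% were higher in place of 49.7%. SREBF2 (−0.049), SCAP (−0.13), NCEH1 (−0.10) and NR1H3 (−0.10) turned negative there, with the median of all genes at −0.18 in place of −0.03. With length and GC trends removed STARD4 (0.0045) and SOAT1 (0.10) turned positive, 23 members were higher, and of all called genes 57.1% were higher. Beyond that shift the cause was not tested. DESeq2 called 22 members higher and 2 lower, beside 4196 and 3965 of all 16039 tested genes. The test against a fold of 1.2 called 20 and 2, beside 3096 and 3236 of all tested genes. With shRNA1 alone, 21 members were higher under DESeq2 and 19 in the test against a fold of 1.2, beside 22 in the main fit. The main fit called 26.8% of all tested genes higher with shRNA1. That share was not counted for shRNA1 alone in the other fits.

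Without 1 library at a time, TM7SF2 ranged from −0.44 to 0.24, NR1H3 from −0.032 to 0.15, SCAP from −0.021 to 0.057 and SOAT1 from −0.13 to 0.0028. The median of the members ranged from 0.51 to 0.58, and that of all tested genes from −0.049 to −0.017. Leaving out shControl replicate 1 ended the SREBF2 call, and leaving out shRNA2 replicate 1 made STARD4 a call. Such fits give a group's single remaining library the spread of the other groups. With a replicate block 22 members were higher and 2 lower, beside 4558 and 4612 of all tested genes, and no member's call changed. The labels tie same-numbered libraries by number only, and correlations of their deviations were 0.0107, −0.029 and −0.00123 between pairs of groups. These values do not settle whether such libraries shared a culture or day. With 2 libraries a group, TM7SF2 (26 to 84 counts) was the member most limited by depth.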

Other observations

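Exons of several other members overlap those of neighbouring genes. The antisense partners at HMGCS1 (AC114947.2, 703 shared bases) and LSS (AP001468.1, 448 bases) had no counts. FDPS shares 693 bases with RUSC1-AS1, which went from 1.64 CPM under shControl to 3.25 under shRNA1 and 3.73 under shRNA2 (1.07 ± 0.27, edgeR adjusted p = 0.00307). NR1H3 shares 189 bases with ACP2, a lysosomal phosphatase that went from 29.7 CPM to 46.0 and 48.4 (0.67 ± 0.07), while NR1H3 itself was not called. CYP51A1 shares 2844 bases with AC000120.2 on its own strand, and that gene had no counts.

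Ratios of opposing enzymes and receptors were also read within each library, per exon length. SOAT1 to NCEH1, which store and release cholesterol esters, gave 0.545 and 0.611 under shControl, 0.542 and 0.575 under shRNA1, and 0.507 and 0.511 under shRNA2 (two-sided exact permutation p = 0.2). NR1H2 to NR1H3 gave 10.9 and 10.1 under shControl and 12.2 to 14.9 under the hairpins (two-sided exact permutation p = 0.133).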
